A study of Mus musculus with 4 samples.

Results

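A set of 10 transcripts known above all from liver, which encode proteins secreted into blood or urine, was followed in inguinal white adipose tissue: Alb, Apoa1, Apoa2, Apoh, Ttr, Ahsg, Fga, Fgb, Mup3 and Mup20. They are 10 of the 37315 Ensembl gene identifiers counted in the input libraries, and were chosen by name and identifier with their input counts and m6A peaks known, so the values below describe them and no test is given. The tissue came from male C57BL/6 mice aged 23 weeks with obesity induced by a high-fat diet, treated with entacapone or with vehicle. Entacapone is a drug of Parkinson's disease that inhibits catechol-O-methyltransferase, and inhibition of FTO, an enzyme that removes m6A, has been reported for it as well. Each treatment had 1 input library of fragmented poly(A) RNA and 1 m6A immunoprecipitate (IP), enriched with a polyclonal antibody against N6-methyladenosine and deposited as a peak list, 4 libraries in all. The labels give no dose or duration, nor the number of animals behind a library.

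In liver, hepatocytes secrete most plasma proteins, among them albumin, the apolipoproteins of high-density lipoprotein (HDL) and the chains of fibrinogen. Transcription of these genes in hepatocytes depends on liver-enriched factors such as those of the HNF4, FOXA and C/EBP families. In mice, hepatocytes also make the major urinary proteins, small lipocalins that carry pheromones into urine and are abundant in males. White fat is a different secretory tissue, known for adiponectin, leptin and adipsin. m6A is a methyl mark on adenosines of messenger RNA, and a peak is a stretch where the IP holds more reads than the input.

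The entacapone input held 33164576 gene-assigned counts and the vehicle input 24548212, a ratio of 1.35. Counts were scaled to the library total (CPM), and a ratio always sets the entacapone input over the vehicle input. With 1 library per kind there was no replicate. The 95% intervals are exact and cover counting error only, so they describe these libraries and not the treatments, and the labels mention no molecular identifiers to tell PCR copies apart.

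All 10 transcripts were lower in the entacapone input. Their summed level was 83.8 CPM there (exact binomial interval 80.7 to 86.9), against 317.3 CPM in the vehicle input (310.2 to 324.4). The ratio of the sums was 0.264 (0.253 to 0.276). Alb supplied most of these counts, 73.7% in the entacapone input (72.0 to 75.4) and 58.2% in the vehicle input (57.1 to 59.3), where counts are not scaled to transcript length. Without Alb the other 9 summed to 22.0 CPM in the entacapone input and 132.6 CPM in the vehicle input, a ratio of 0.166 (0.153 to 0.180). In bulk tissue, fewer cells of a type and less RNA per cell cannot be told apart. Which cells or tissue these transcripts came from was not tested.

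An identifier was called when its whole ratio interval lay beyond 1.5-fold. All 10 genes were called lower and 0 higher, whereas 2.52% of the 13820 identifiers tested, those averaging 1 CPM or more over the inputs, were called lower and 5.6% higher. With edgeR's TMM scaling the split over the tested identifiers was 659 higher and 447 lower. With DESeq2 size factors it was 646 and 459, against 774 and 348 with the library total. DESeq2 size factors moved the median log2 ratio of the tested identifiers by -0.10. Beyond 2-fold, all 10 were called lower, against a background of 1.21% lower and 2.48% higher. Beyond 4-fold, 7 were called lower, against 0.282% lower and 0.0868% higher. Since the genes were chosen with these counts known, nothing is read from the excess. The median log2 ratio of the 10 was -2.51, beside 0.08 over all tested identifiers, and all 10 passed the filter. Apoh and Mup20 lay below 1 CPM in the entacapone input (0.844 and 0.784) and passed through their vehicle levels (5.21 and 12.02). At an entacapone level below 1 CPM the filter admits only genes with a higher vehicle level, so passing it favours a low ratio there. With no filter all 10 were called lower as well.

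**Figure D1:**
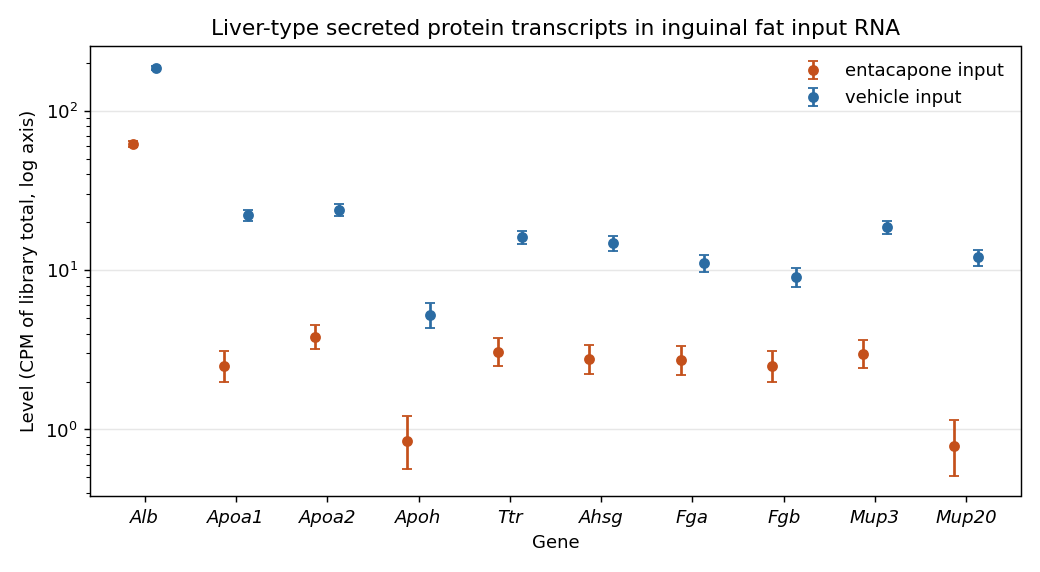
Level of each transcript in the entacapone input (left point) and the vehicle input (right point), in CPM of the library total on a log axis, with exact Poisson 95% intervals for counting error. For all 10 genes the intervals of the inputs do not overlap; CPM is not scaled to transcript length, so levels are compared within a gene.

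Albumin is the main protein of plasma and a carrier of fatty acids and many drugs. Alb (ENSMUSG00000029368, chromosome 5, 90460870 to 90476602 in mm10) had 2048 counts in the entacapone input and 4532 in the vehicle input. Its level was 61.8 CPM in the entacapone input (Poisson interval 59.1 to 64.5) and 184.6 CPM in the vehicle input (179.3 to 190.1). The log2 ratio was -1.58 (-1.66 to -1.50), nearest to 0 of the 10, with the narrowest interval and the most counts. Ranked by count among all identifiers, Alb stood at place 3224 in the entacapone input and at 865 in the vehicle input. Only 120 of the 13820 tested identifiers (0.868%) had a lower ratio than Alb.

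Apoa1 and Apoa2 encode the main apolipoproteins of HDL. Apoa1 (ENSMUSG00000032083, chromosome 9, 46228630 to 46230469) had 83 counts in the entacapone input and 542 in the vehicle input. These are 2.503 CPM (1.99 to 3.10) and 22.1 CPM (20.3 to 24.0), a log2 ratio of -3.13 (-3.49 to -2.81). Apoa1 thus stood 8.82-fold lower in the entacapone input, and 9 tested identifiers had a lower ratio. Apoa2 (ENSMUSG00000005681, chromosome 1, 171221564 to 171226379) had 127 counts in the entacapone input and 587 in the vehicle input. Its levels were 3.83 CPM (3.19 to 4.56) and 23.9 CPM (22.0 to 25.9), a log2 ratio of -2.64 (-2.93 to -2.36). The intervals of the Apoa1 and Apoa2 ratios overlap. The span of Apoa2 overlaps that of Tomm40l, a gene of the mitochondrial import pore family, and how the counting treated shared reads is not given.

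Apoh, Ttr and Ahsg encode further plasma proteins. Apoh (ENSMUSG00000000049, chromosome 11, 108395297 to 108414396) encodes beta-2-glycoprotein I, which binds anionic phospholipids. It had 28 counts in the entacapone input and 128 in the vehicle input, or 0.844 CPM (0.561 to 1.22) and 5.21 CPM (4.35 to 6.20), a log2 ratio of -2.61 (-3.27 to -2.03). Ttr (ENSMUSG00000061808, chromosome 18, 20664209 to 20674326) encodes transthyretin, the carrier of thyroxine and of retinol-binding protein. It had 102 counts in the entacapone input and 394 in the vehicle input, or 3.08 CPM (2.51 to 3.73) and 16.1 CPM (14.5 to 17.7), a log2 ratio of -2.38 (-2.71 to -2.07). Ahsg (ENSMUSG00000022868, chromosome 16, 22892015 to 22899451) encodes fetuin-A, which keeps calcium phosphate in solution in plasma. It had 92 counts in the entacapone input and 362 in the vehicle input, or 2.77 CPM (2.24 to 3.40) and 14.7 CPM (13.3 to 16.3), a log2 ratio of -2.40 (-2.76 to -2.08). The ratio intervals of these 3 genes overlap one another, and that of Apoh, with the fewest vehicle counts of the 10, is the widest of the 3.

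Fga and Fgb encode the alpha and beta chains of fibrinogen, the precursor of fibrin in blood clots, and lie next to each other on chromosome 3. Fga (ENSMUSG00000028001, 83026153 to 83033627) had 90 counts in the entacapone input and 271 in the vehicle input. These are 2.71 CPM (2.18 to 3.34) and 11.0 CPM (9.76 to 12.4), a log2 ratio of -2.02 (-2.38 to -1.68). Fgb (ENSMUSG00000033831, 83042246 to 83049863) had 83 counts in the entacapone input and 221 in the vehicle input, or 2.503 CPM (1.99 to 3.10) and 9.003 CPM (7.85 to 10.3), a log2 ratio of -1.84 (-2.23 to -1.48). The chains' ratios overlap in their intervals, and after Alb they were the nearest to 0. Summed, the fibrinogen chains had a ratio of 0.260 (0.218 to 0.310), and the HDL apolipoproteins 0.138 (0.118 to 0.160).

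Mup3 and Mup20 belong to the major urinary protein cluster on chromosome 4, and Mup20 encodes darcin, a pheromone-like protein of male mouse urine. Mup3 (ENSMUSG00000066154, 62083476 to 62087317) had 99 counts in the entacapone input and 456 in the vehicle input. These are 2.99 CPM (2.43 to 3.63) and 18.6 CPM (16.9 to 20.4), a log2 ratio of -2.63 (-2.97 to -2.32). Mup20 (ENSMUSG00000078672, 62011337 to 62054143) had 26 counts in the entacapone input and 295 in the vehicle input, or 0.784 CPM (0.512 to 1.15) and 12.02 CPM (10.7 to 13.5). Its log2 ratio of -3.91 (-4.58 to -3.36) was the lowest of the 10, 15.3-fold lower in the entacapone input (10.3 to 23.9), and 2 tested identifiers had a lower one. The interval of Mup20 overlaps that of Apoa1 and of no other gene of the set. Major urinary protein genes are close copies of one another, the span of Mup20 also holds the pseudogene Mup-ps21, and reads that fit several copies could have been split among them or dropped, so both values are uncertain.

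**Figure D2:**
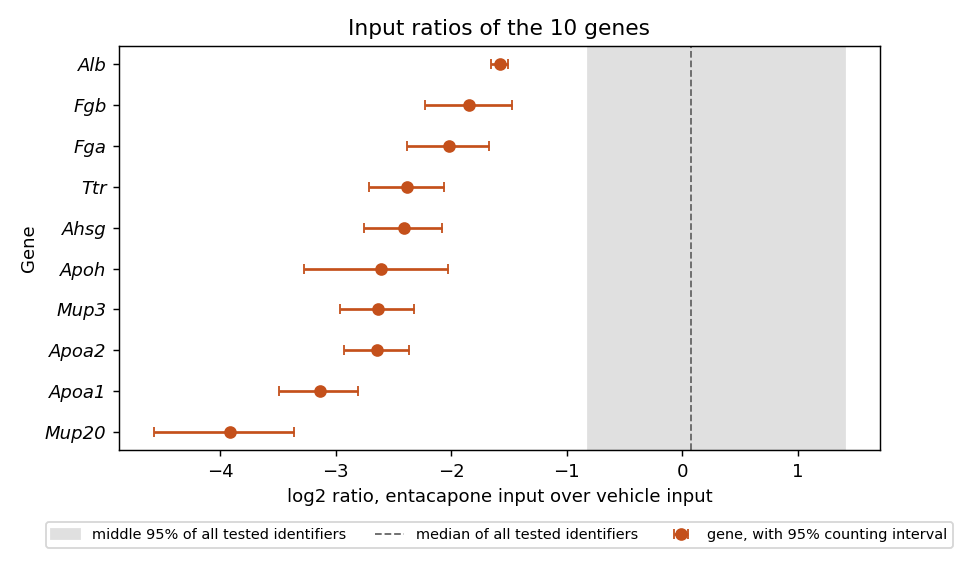
The log2 ratio of the entacapone input over the vehicle input for each gene, with its exact conditional 95% counting interval, from Alb (-1.58) at the top to Mup20 (-3.91) at the bottom. The grey band is the middle 95% of all 13820 tested identifiers (-0.81 to 1.41) and the dashed line their median; all 10 genes lie left of the band.

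The counting intervals of the 10 ratios did not all overlap. The interval of Alb (0.317 to 0.352) overlaps that of Fgb (0.213 to 0.359) and of no other gene of the set. In ratios, the genes ran from 0.0652 for Mup20 to 0.334 for Alb. From the lowest upward, Mup20 was followed by Apoa1, and then by Apoa2, Mup3, Apoh, Ahsg and Ttr, whose log2 ratios lay between -2.64 and -2.38 with overlapping intervals. Of the identifiers outside the set, ENSMUSG00000057400 and ENSMUSG00000067649 had the log2 ratios nearest to the median of the 10, -2.52 for both, a likeness over 1 pair of libraries. The first had 35 counts in the entacapone input and 150 in the vehicle input, and the second 22 and 95; the tables used here do not pair them with names.

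**Figure D3:**
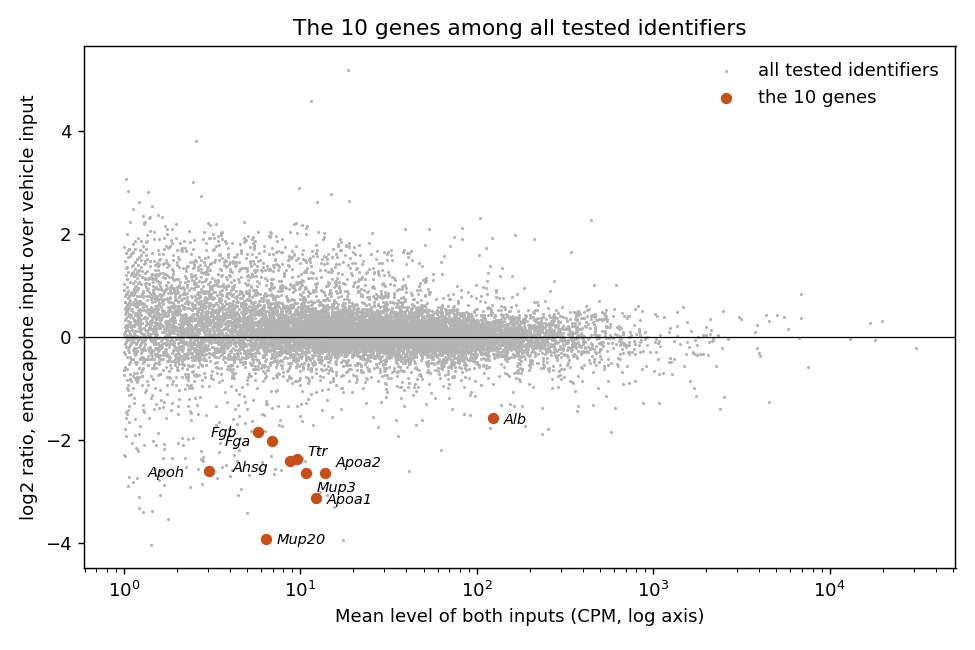
The log2 ratio of the entacapone input over the vehicle input against the mean level of both inputs in CPM (log axis), for all 13820 tested identifiers (grey) and the 10 genes (orange). The 10 genes lie at mean levels from 3.03 to 123.2 CPM and toward the lower edge of the cloud at their level.

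The genes' mean levels ran from 3.03 CPM for Apoh to 123.2 CPM for Alb. Within that range lay 10643 identifiers, of which 1.86% were called lower beyond 1.5-fold and 0.874% beyond 2-fold.

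The promoters of these genes were read for motifs of the liver-enriched factors named above. RefSeq's table of GRCm38.p6, the assembly called mm10, gave the 250 bases before the start of 8 of the 10 genes, with 2 starts for Apoa2. Both strands were searched for 5 motifs, chosen with these sequences in view, so nothing is read from an excess of matches. The first, TGTTTNC, allows any base at N and so is looser than the core that FOXA factors prefer. It was found for 7 of the 8 genes, all but Mup3, and for 19.9% of all 27018 genes with such a promoter, where a gene counts if any of its starts has a match. No TGTTTNC match overlapped a match of another motif. The promoters of Alb (chr5:90460620-90460869, plus strand), Apoa1 (chr9:46228380-46228629, plus strand), Fga (chr3:83025903-83026152, plus strand) and Mup3 (chr4:62087318-62087567, minus strand) are shown 5′ to 3′ to let the position of that motif be compared, with TGTTTNC on either strand in capitals.
Alb: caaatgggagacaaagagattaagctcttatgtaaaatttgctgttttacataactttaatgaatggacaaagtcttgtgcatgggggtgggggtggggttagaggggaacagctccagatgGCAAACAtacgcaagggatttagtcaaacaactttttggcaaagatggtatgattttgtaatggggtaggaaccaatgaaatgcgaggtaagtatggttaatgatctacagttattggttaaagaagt
Apoa1: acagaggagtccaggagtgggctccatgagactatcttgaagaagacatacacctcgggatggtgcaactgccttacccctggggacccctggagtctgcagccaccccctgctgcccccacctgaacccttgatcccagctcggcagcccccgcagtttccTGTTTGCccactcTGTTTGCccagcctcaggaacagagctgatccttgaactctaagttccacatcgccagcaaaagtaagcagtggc
Fga: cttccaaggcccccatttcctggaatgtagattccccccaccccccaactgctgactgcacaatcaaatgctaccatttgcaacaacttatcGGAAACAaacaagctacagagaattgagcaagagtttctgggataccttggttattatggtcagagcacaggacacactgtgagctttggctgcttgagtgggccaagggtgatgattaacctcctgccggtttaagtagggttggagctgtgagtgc
Mup3: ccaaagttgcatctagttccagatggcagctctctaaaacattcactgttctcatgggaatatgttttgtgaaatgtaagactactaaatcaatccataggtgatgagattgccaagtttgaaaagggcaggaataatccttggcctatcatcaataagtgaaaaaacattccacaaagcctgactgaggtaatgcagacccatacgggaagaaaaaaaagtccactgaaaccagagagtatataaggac
The match began 128 bases before the start in Alb and 158 before it in Fga, both on the opposite strand, and Apoa1 held a pair of matches at 88 and 75 bases. In Apoh and Ahsg it began 71 and 79 bases before the start, and in Fgb 192 bases before it. In Apoa2 it began 77 bases before the start that follows position 171225053. The Apoa2 start that follows position 171221563 had no such match. A C/EBP motif, searched as TTNNGNAAT, was found for Alb, Apoh, Ahsg and Mup3 and for 11.7% of all genes. The CCAAT box, searched by those letters, was found for Alb and Apoa2 and for 37.5% of all genes. The letters TATANA, searched for the TATA box, were found for Apoa2 and Mup3 and for 25.7% of all genes. They began 212 bases before the same Apoa2 start and 11 bases before the Mup3 start, and a working TATA box was not tested. An HNF4 motif, searched as CAAAGTNC, was found for 0 of the 8 genes and for 3.92% of all genes. Other forms of an HNF4 site were not searched, so the 0 does not show that such sites are absent. A match describes these letters and shows no bound factor.

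m6A peaks were few in these genes. The entacapone list was 1.39 times as long as the vehicle list, with 31856 peaks and 22860 peaks, so counts are also given with the 22860 peaks of highest fold from each list, called equal lists below; that choice drops entacapone peaks of low fold alone. A peak was counted for a gene when its midpoint lay in the RefSeq gene span. Among the 10, 2 carried an entacapone peak (Apoa1 and Mup20) and 2 a vehicle peak (Fga and Fgb), and none carried both. With equal lists the Apoa1 peak dropped out, which left 1 entacapone and 3 vehicle peaks in these genes. Equal lists left 8800 of all 21887 protein-coding genes with an entacapone peak and 9001 with a vehicle peak. Over all 21887 protein-coding genes, 50.0% carried an entacapone peak and 41.1% a vehicle peak; 38.7% carried both, 11.3% entacapone peaks alone and 2.4% vehicle peaks alone. Among the 13816 genes whose spans were between 1840 and 42807 bp, the range of the 10 genes, these shares were 49.7% and 39.9%. The 20% of the 10 genes in each list lay below these shares, which was not tested, and a gene without a listed peak may still carry m6A. The genes behind these shares were not matched to the 10 on input level, nor limited to genes expressed in this tissue.

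The 5 peaks had 2.33 to 3.09 as the authors' fold enrichment. Apoa1 had 1 entacapone peak at 46229856 to 46229939 on chromosome 9, 83 bp wide with a fold of 2.33. Its midpoint lay 68.9% of the way along the span, and 26.0% of the entacapone list had a lower fold. Mup20 had 1 entacapone peak at 62050391 to 62050452 on chromosome 4, 61 bp wide with a fold of 3.09, above 49.3% of that list. Like all 10 genes, both had fewer counts in the entacapone input than in the vehicle input, so these peaks were listed where the input held 83 and 26 counts for the gene. Fga and Fgb, with 90 and 83 counts in the entacapone input, had 0 entacapone peaks. Reads that fit several major urinary protein genes make the Mup20 peak uncertain as well.

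Fga had 2 vehicle peaks on chromosome 3, at 83031059 to 83031350 (291 bp, fold 2.78) and at 83031606 to 83031660 (54 bp, fold 2.66). Their midpoints lay 67.6% and 73.3% of the way along the gene from its start. Fgb had 1 vehicle peak at 83042467 to 83042563 (96 bp, fold 2.497), 269 bp before the end of the gene. These 3 peaks stood above 33.9%, 30.5% and 24.7% of the vehicle list in fold. None of the 5 peaks overlapped a peak of the other list, and none reached a fold of 4. The share of all peaks that overlap the other list is not given here, so nothing is read from that. The median fold was 3.10 over the whole entacapone list and 3.32 over the whole vehicle list. Alb, with the most input counts of the set, had 0 peaks in either list, and the nearest listed peak lay 93874 bp away in the entacapone list and 93889 bp away in the vehicle list. Apoa2, Apoh, Ttr, Ahsg and Mup3 also had 0 in both.

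Other liver genes could be followed in the peak lists alone, because their identifiers in the count files are not paired with names in the tables used here; their summed input level, and so their part in the result, was not tested. Of 51 other plasma protein genes of hepatocytes, 7 carried an entacapone peak and 10 a vehicle peak, 5 of them both, and with equal lists 6 and 10. For comparison, the shares over all 21887 protein-coding genes were 50.0% for entacapone and 41.1% for vehicle. Peaks confined to entacapone were found for 11.3% of the 21887, and peaks confined to vehicle for 2.4%. The 21887 were not matched to the 51 on input level, and the difference was not tested. Serpina1c, one of the alpha-1-antitrypsin genes, had 3 entacapone and 4 vehicle peaks, and Serpina3k, a related protease inhibitor, had 1 and 2. Both belong to clusters of close copies. Apoa5, an apolipoprotein that lowers plasma triglyceride, had 0 and 3. The genes with a peak in the vehicle list alone were Apoa5, F10, Proc, Hrg and Saa4, and those with one in the entacapone list alone were Hpx and Orm1, all but Apoa5 named after their values were seen. Of 19 other major urinary protein genes, 0 carried an entacapone peak and 2, Mup1 and Mup17, carried 1 vehicle peak each.

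The counts below stand beside 50.0% of all 21887 protein-coding genes with an entacapone peak and 41.1% with a vehicle peak. With equal lists these were 8800 and 9001 genes. Of 27 hepatocyte enzymes and transporters, 4 (14.8%) had a peak in each list, 2 of them in both, and with equal lists again 4 in each. Cyp2e1, an ethanol-oxidizing cytochrome that fat also expresses, had 3 entacapone and 0 vehicle peaks (2 and 0 with equal lists). Arg1, an arginase that macrophages can also make, and Ass1, another urea cycle gene, had 1 in each list. Of 12 liver transcription factors, 4 (33.3%) carried an entacapone peak and 2 (16.7%) a vehicle peak, and with equal lists 3 and 2. Nr5a2, a regulator of bile acid synthesis, had 2 entacapone and 3 vehicle peaks, and Nr1h4, the bile acid receptor, had 2 in each. Nr1i3 and Cebpb had 1 entacapone and 0 vehicle peaks each. Hnf4a, which helps define the hepatocyte, had 0 in both lists, as did Cps1 and Cyp3a11, all named after their values were seen. Of 16 plasma protein genes that fat itself is known to express, 10 (62.5%) carried an entacapone peak and 4 (25%) a vehicle peak, but with equal lists 4 carried each. Cp, ceruloplasmin, had 3 in each (2 and 3 with equal lists), and Agt, angiotensinogen, 3 entacapone and 2 vehicle peaks (1 and 2).

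**Figure D4:**
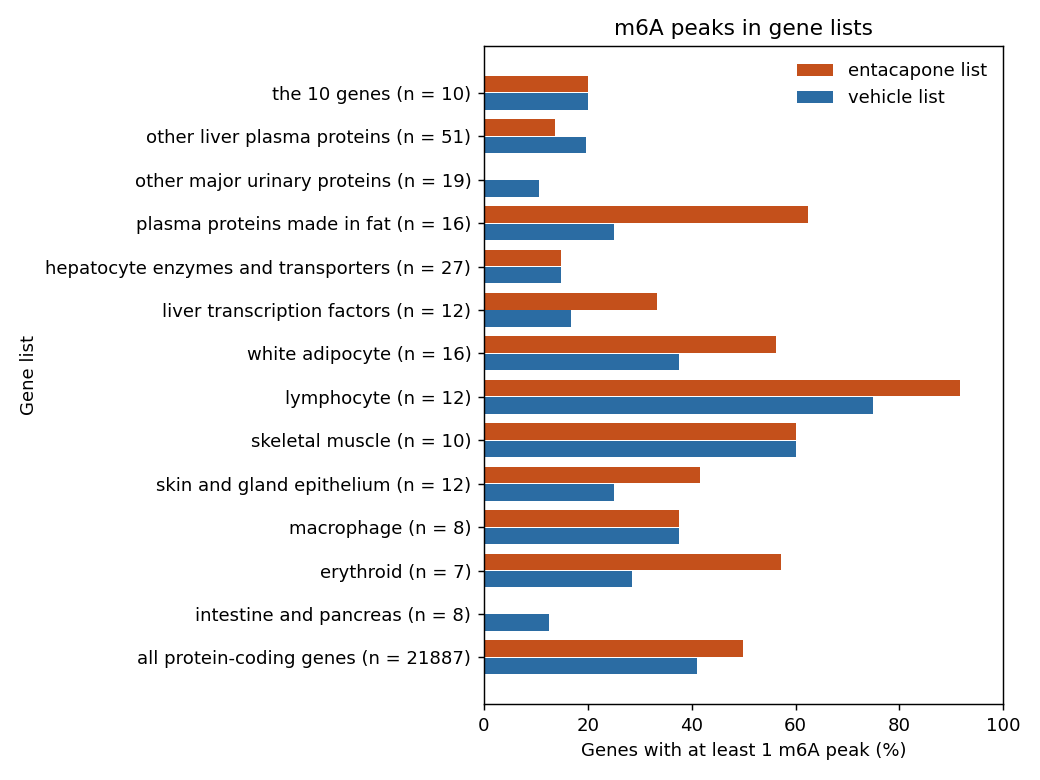
Share of the genes of each list with at least 1 m6A peak, in the entacapone list (orange, upper bar) and the vehicle list (blue, lower bar), with the number of genes in parentheses. The 10 genes stand at 20% in each list, below the 50.0% and 41.1% of all protein-coding genes in the bottom row; a missing bar is 0.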

How the data were processed

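The samples were grouped by treatment and library kind from their titles. The authors deposited raw read counts per Ensembl gene identifier for each input, and for each IP a peak list whose unlabelled number, never below 1, was taken as a ratio, the authors' fold enrichment. TopHat2 2.1.1, MACS2 and the build mm10 are named, per the submitters' processing notes; the read counter, annotation release, peak threshold and coordinate base are not stated in them. The library kit was TruSeq RNA v2, read at 101 bases, per the labels' protocols.

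Log2 ratios used CPM of the library total with a prior of 0.5 counts; the intervals were exact conditional (Clopper-Pearson) ones, from scipy 1.17.1. Identifiers entered with at least 1 CPM on average over both inputs. TMM (edgeR 4.0.16) and DESeq2 1.42.0 size factors, in R 4.3.3, were alternatives. No test across samples was possible with 1 library per kind.

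Peaks were placed in RefSeq spans of GRCm38.p6, counting for every protein-coding gene whose span holds the midpoint, and shared at an overlap of at least 1 bp. Names of the 10 identifiers come from the rule that chose the genes. All 198 entries of 12 gene lists matched by symbol. The 10 genes and the lists were chosen with earlier results of these data known. Named were all 10 genes, up to 4 genes of each list with most peaks in both lists together, and the identifiers with ratios nearest the median; genes named outside this rule are marked as chosen after their values were seen. Input medians for the gene lists were left out, since the tables pair no other identifier with a name.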

Additional observations from a re-analysis of the deposited data

How the results depend on the processing

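All 10 genes were called lower with TMM factors, DESeq2 size factors, the upper quartile, a 2-fold limit, a 99% interval, no filter, a prior of 2 counts, and library totals without the 10 genes or without the 10 most counted identifiers. Of 60 recomputed log2 ratios of single genes, 58 stayed within the counting interval; the exceptions were Alb at -1.67 with TMM and -1.68 with DESeq2 size factors, scalings that shift the ratios of all genes together. Over the 13820 tested identifiers, 343 were higher and 167 lower beyond 2-fold. The log2 ratio of the summed counts was -1.92, and became -2.59 without Alb and -1.84 without Mup3 and Mup20, alternatives added after seeing the data. At a fold of at least 4, the 10 genes had 0 entacapone and 0 vehicle peaks, and the other liver plasma protein list had 2 entacapone members, against 7 vehicle ones. Of all 21887 protein-coding genes, 4779 carried an entacapone peak of that fold and 4323 a vehicle peak. Of the 12 gene lists, 6 had more genes with entacapone than with vehicle peaks, 3 fewer and 3 equal. Peaks of fold 4 or more gave 6, 5 and 1, and an equal number of top-ranked peaks per list gave 3, 6 and 3, a setting that drops entacapone peaks of low fold alone. Of 44 further counts of list members, 26 were within 1.5 times the reported ones and 18 were not. Any overlap with the span left the numbers of peaks in the 10 genes as they were, and a 50% reciprocal overlap left 0 shared. With an equal number of top-ranked peaks, added after seeing the data for the 10 genes, they had 1 entacapone and 3 vehicle peaks. Gene list ratios in the input were not run. No paired analysis was possible because each treatment had 1 input library. Counts of 26 and 28 in the entacapone input limit the precision for Mup20 and Apoh.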

Other observations

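Lists of cells that inguinal fat can hold were read in the peak lists as well, and so was a list of intestine and pancreas genes, which are other tissues. They stand beside the 50.0% and 41.1% of all protein-coding genes with an entacapone and a vehicle peak. Since the entacapone list is 1.39 times as long, each count is followed by that from an equal number of top-ranked peaks. Of 16 white adipocyte genes, 9 carried an entacapone peak and 6 a vehicle peak, and 6 carried each with equal numbers. Pparg, the adipogenic nuclear receptor, had 6 entacapone and 3 vehicle peaks in both settings. Plin1, the lipid droplet coat protein perilipin, had 4 and 2, which turned to 0 and 2, and Cd36, a fatty acid transporter, had 4 and 2, which turned to 1 and 2. Cidec, a lipid droplet protein, had 3 and 2, and then 2 and 2.

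Of 12 lymphocyte genes, 11 carried an entacapone peak and 9 a vehicle peak, which turned to 7 and 9 with equal numbers and to 2 and 6 at a fold of at least 4. Pax5, which specifies B cells, had 9 and 4 in both of the first settings, and Cr2, a complement receptor of B cells, had 4 and 6 in both. Of 10 skeletal muscle genes, 6 had a peak in each list, and 2 and 6 with equal numbers. Myh1, a fast myosin, had 5 entacapone and 3 vehicle peaks, then 3 and 3. Tnnt3, a fast troponin, had 5 and 2, then 1 and 2, Myh4, another fast myosin, had 0 and 3 in both settings, and Atp2a1, a calcium pump, had 1 and 2, then 0 and 2.

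Skin and gland epithelium gave 5 of 12 genes with an entacapone peak and 3 of 12 with a vehicle peak in both settings. Macrophage gave 3 and 3 of 8, then 2 and 3, and erythroid genes 4 and 2 of 7 in both settings. The list of intestine and pancreas genes had 0 of 8 in the entacapone list and 1 of 8 in the vehicle list, the single peak being in Fabp2, an intestinal fatty acid binding protein. Summed input levels of these lists were not computed, since their identifiers are not paired with names here.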
